A study of Mus musculus with 24 samples.

Results

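The data were the 8 arrays of untreated epithelial cells among the 24 arrays of a mouse expression study, and what is described is how their replicates numbered 3 and 4 differed from their replicates numbered 1 and 2. The 8 arrays were chosen by cell line, treatment and the replicate number in the sample title. They hold 2 arrays of replicates 3 and 4 and 2 arrays of replicates 1 and 2 for each of 2 cell lines, so the cell line can be kept as a term and the genes that moved alike in both lines can be told from those that moved in 1 line. The split was itself found in these measurements. The differences between the replicate sets in untreated cells are therefore given as a description, with no test, and tests are kept for the arrays of the series that did not define the split.

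The series measured transcripts on Affymetrix whole-transcript arrays in the epithelial lines C57epi.1 and Bm12.4 and in bone marrow macrophages. C57epi.1 came from upper reproductive tract epithelium of C57BL/6 mice. Bm12.4 has the same source tissue, in the strain B6(C)-H2-Ab1bm12/KhEgJ, whose MHC class II differs from that of C57BL/6. Macrophages were raised in GM-CSF out of C57BL/6 femur marrow. For each cell kind, 4 arrays hold cells given supernatant, a medium conditioned by a CD4 T cell clone specific for Chlamydia and its infected epithelial monolayer, added at 33% (v/v) with interferon-gamma brought to 4 ng/ml, and 4 arrays hold cells given RPMI medium alone, which both replicate sets described here received. The labels give no age, no culture time and no cell density, do not say what separates replicates 3 and 4 from replicates 1 and 2, and do not say whether replicates are separate cultures. No growth was measured, so the sets are called by their replicate numbers. Each line is 1 established line, so neither stands for its strain.

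Of the epithelial markers, keratin 19 was high in both lines. Krt19 had log2 levels of 11.47 and 11.54 in C57epi.1 replicates 3 and 4 and 11.56 and 10.69 in replicates 1 and 2, and 11.33 and 11.53 in Bm12.4 replicates 3 and 4 against 12.09 and 12.11 in replicates 1 and 2. Krt8 lay between 8.75 and 9.70 in C57epi.1 and between 5.45 and 5.95 in Bm12.4, and Krt7 between 5.18 and 6.19 and between 4.61 and 4.97. The other markers fixed for epithelium were low in all 8 arrays, with Epcam between 3.56 and 3.89, Cdh1 between 4.16 and 4.68 and Krt18 between 4.67 and 5.30, while the mesenchymal transcripts Vim and Col3a1 lay between 12.38 and 13.55 and between 11.05 and 12.74. None of the 41 genes of epithelial junctions and keratins was among those that moved alike, against 3.38% of all genes. The leukocyte marker Ptprc lay between 3.83 and 4.43. Of 28 macrophage markers, 1 moved in C57epi.1 (Cd68, 1.21 higher) and 1 in Bm12.4 (Mpeg1, 1.01 higher). None of 24 T, B and NK cell markers moved in either line. These counts cannot be told from the shares of all genes that moved, 4.87% in C57epi.1 and 8.26% in Bm12.4. The list medians were low in the 8 arrays, between 3.935 and 4.175 and between 3.59 and 3.87, where a change could be hidden.

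Cells that divide copy their DNA once in each cycle, and the transcripts for replication proteins, nucleotide synthesis and mitosis are made in waves driven by E2F factors at the G1 to S transition and by the MuvB and Foxm1 complexes before mitosis. Cells that leave the cycle, through crowding, loss of growth factors or shortage of nutrients, lose these transcripts and usually make fewer ribosomes, and the cyclin-dependent kinase inhibitors hold them there. Epithelial and stromal cells at rest often make more of the secreted and matrix proteins of their tissue.

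The replicate sets held a larger share of the variation in the untreated lines than in the other 4 groups of arrays. The split was found in the untreated arrays, so nothing is read from this order. Any split of 4 arrays into 2 pairs holds part of the variation by chance. Between arrays of the same line the correlation across genes was 0.9966 within replicates 3 and 4 and 0.9928 within replicates 1 and 2 for C57epi.1, against 0.976 to 0.9831 between the sets. For Bm12.4 it was 0.9956 and 0.9963 within the sets and 0.967 to 0.9697 between them. The sets held 76.4% of the variation among the 4 untreated C57epi.1 arrays and 88.2% among the 4 of Bm12.4, against 41.2% and 56.1% with supernatant and 36.0% and 49.7% in macrophages with medium and with supernatant. After each line was centred on its own mean, the main axis of the 8 arrays held 72.8% of the variance. Replicates 3 and 4 scored 28.2 and 28.04 in C57epi.1 and 41.17 and 38.85 in Bm12.4, and replicates 1 and 2 scored -25.17 and -31.08 in C57epi.1 and -40.87 and -39.15 in Bm12.4.

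Differences below are log2 levels in replicates 3 and 4 minus replicates 1 and 2. A gene was said to have moved in a line if the difference was at least 2-fold, if the arrays of the sets did not overlap, and if it passed limma's moderated test at an adjusted level of 0.05, which served only as a yardstick of size against the spread between arrays. Among 19938 genes, 971 moved in C57epi.1 (4.87% of all genes), 414 higher (2.08% of all genes) and 557 lower (2.79%). In Bm12.4, 1647 genes moved (8.26%), 615 higher (3.08%) and 1032 lower (5.18%). Of these, 674 moved alike in both lines, which is 69.4% of the C57epi.1 genes and 40.9% of the Bm12.4 genes (3.38% of all genes): 186 were higher (0.933% of all genes) and 488 were lower (2.45%). With each array centred on its median the split was 308 higher and 728 lower in C57epi.1, 438 and 1302 in Bm12.4, and 127 and 635 alike. Because the split was chosen on these arrays, nothing is read from these counts beyond their size. Across all genes the differences of the lines correlated at 0.721, which describes 2 sets of arrays on 1 platform.

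**Figure D1:**
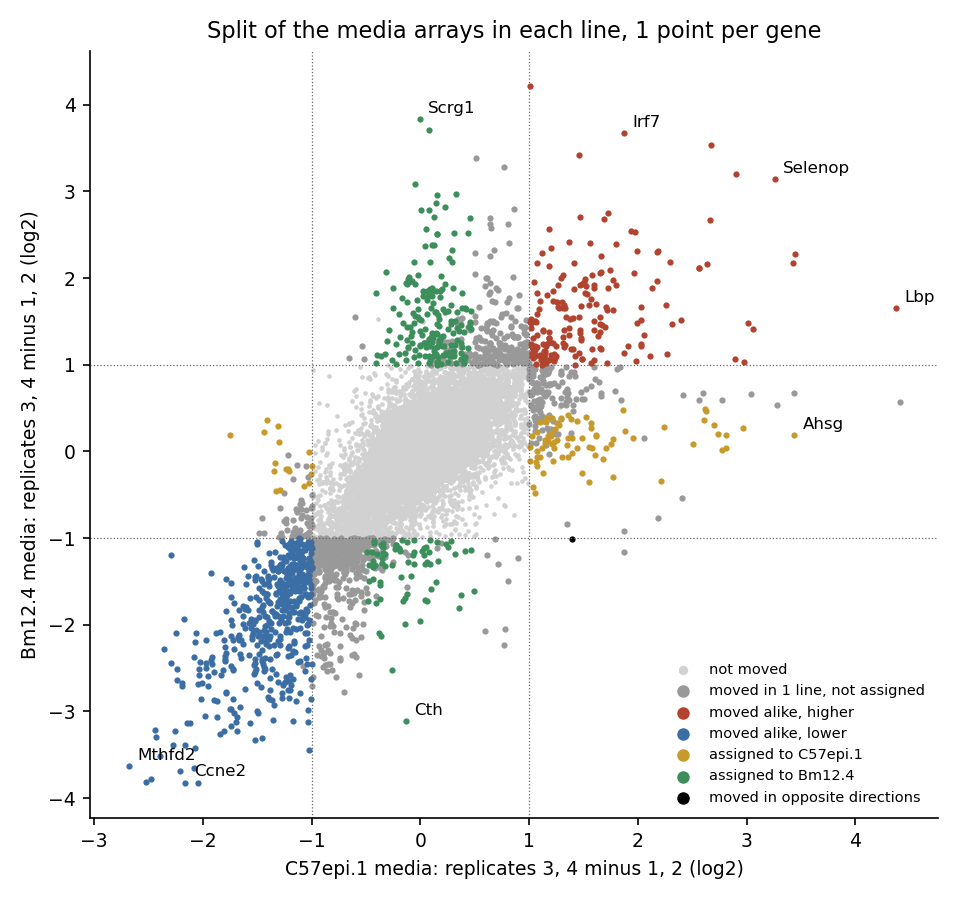
Difference in log2 level, replicates 3 and 4 minus replicates 1 and 2, of untreated C57epi.1 (x axis) and Bm12.4 (y axis), 1 point per gene. The 488 genes lower and 186 genes higher in both lines lie along the diagonal, most of the lower ones beyond it towards Bm12.4.

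The genes that were lower alike were not lower by the same amount. Their median difference was -1.29 in C57epi.1 and -1.81 in Bm12.4, and the Bm12.4 difference was the larger of the pair for 439 of 488 genes. The 186 genes that were higher alike had medians of 1.41 and 1.48, and Bm12.4 was the larger for 108. At the edge of the rule, Cip2a was just inside with differences of -1.0 in C57epi.1 and -2.46 in Bm12.4, and Adhfe1 with 1.42 and 1.0. Heatr3 (-0.99 and -1.58) and Kif11 (-0.99 and -2.71) were just outside it.

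Among the lists, the replication machinery had the largest share of genes lower alike. Of 45 genes for replication licensing and the fork, 38 were lower alike, with medians of -1.51 in C57epi.1 and -2.12 in Bm12.4 against 0.03 and 0.08 over all genes, and 44 were lower in Bm12.4. Mcm5, a subunit of the helicase that opens DNA, had log2 levels of 7.87 and 8.03 in C57epi.1 replicates 3 and 4 against 10.07 and 10.07 in replicates 1 and 2, a 4.35-fold difference. Its Bm12.4 levels were 6.45 and 6.94 against 9.72 and 9.94, an 8.78-fold difference. The sets did not overlap in either line, and replicates 1 and 2 were at about the same height in both. Gins1, part of the complex that activates that helicase, had 6.05 and 5.70 against 8.35 and 8.36 in C57epi.1 and 4.27 and 4.30 against 7.96 and 8.18 in Bm12.4. Cdc6, which loads the helicase at origins, differed by -2.44 and -3.29, Mcm3 by -2.45 and -3.22, and Exo1, an exonuclease of replication-coupled repair, by -2.40 and -3.52. Pcna, the sliding clamp of the polymerases, was high in all arrays, with 9.90 and 9.98 against 11.40 and 11.58 in C57epi.1 and 9.80 and 9.80 against 12.01 and 11.92 in Bm12.4.

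**Figure D2:**
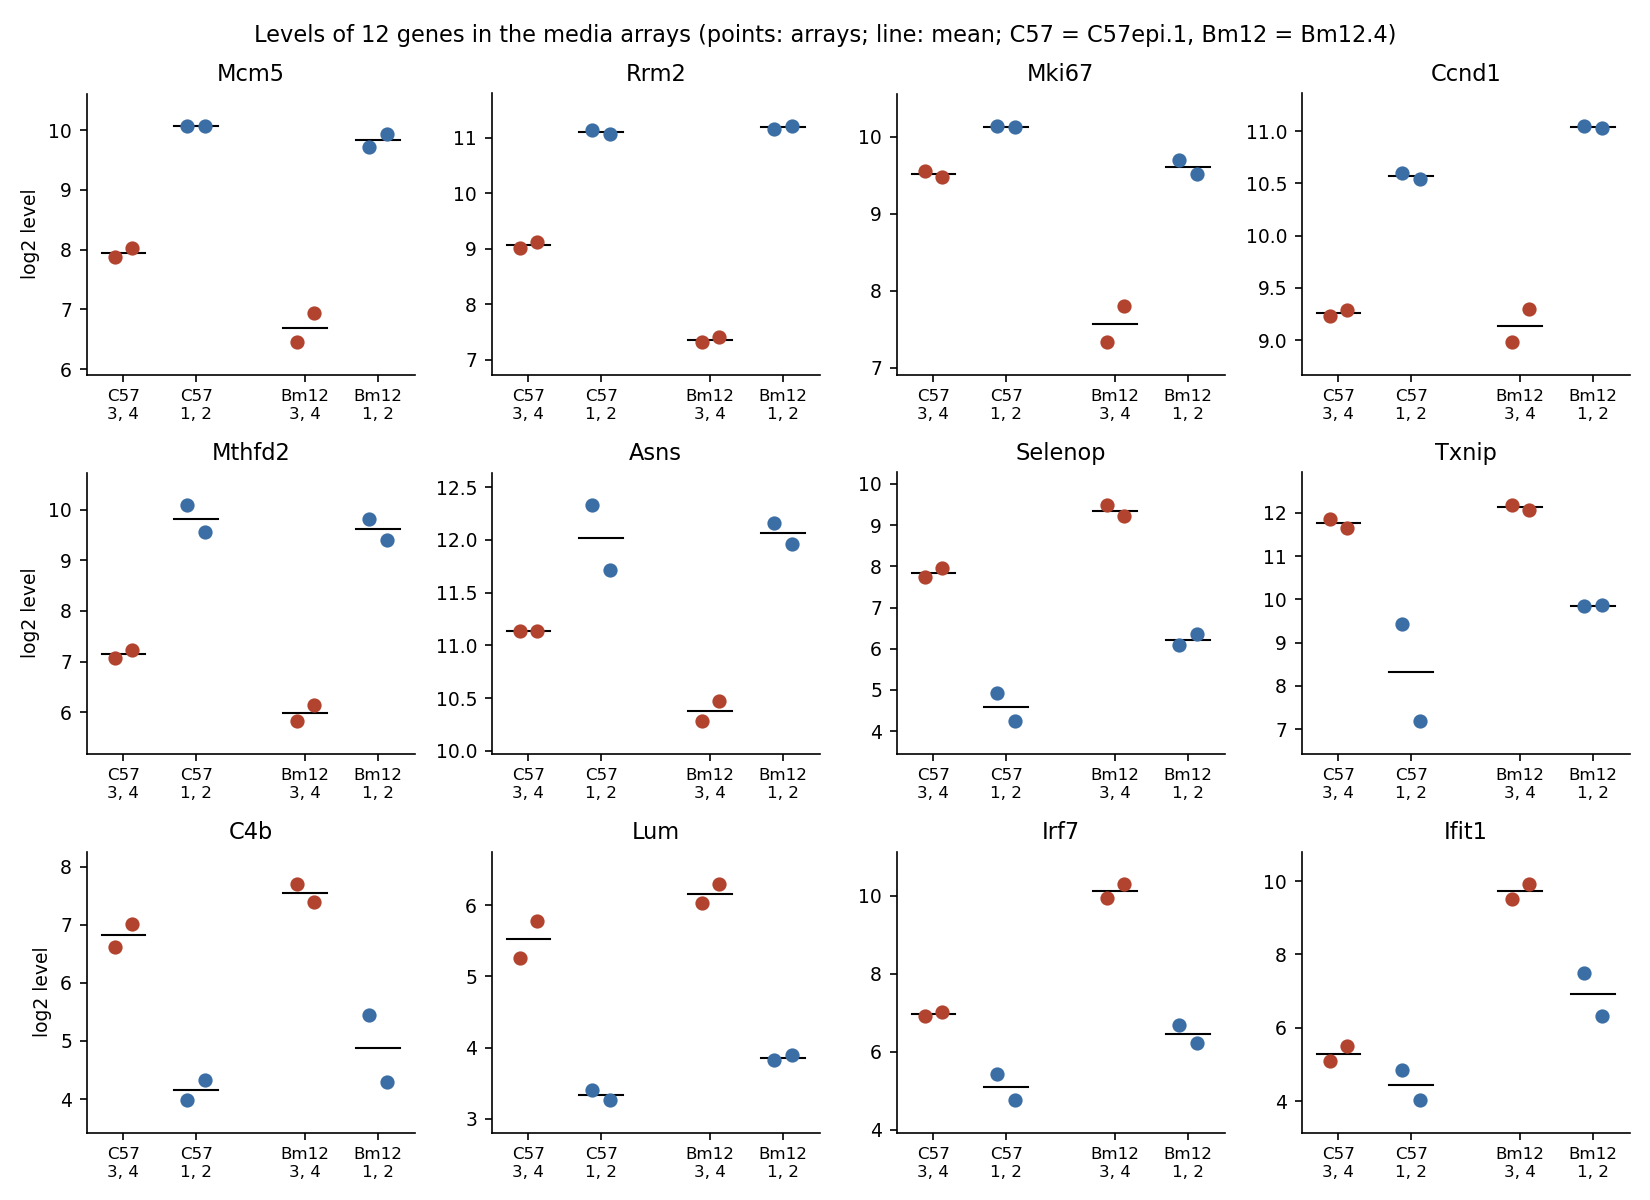
Log2 levels of 12 named genes in the 8 untreated arrays, C57epi.1 left of Bm12.4 in each panel and replicates 3 and 4 left of replicates 1 and 2; points are arrays and lines their means. The replication and nucleotide genes sit lower in replicates 3 and 4 of both lines, and Selenop and Irf7 sit higher.

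Promoters of Cdc6 and Mcm5 are shown for the E2F motif, since E2F factors are the known drivers of replication genes. These genes were picked for holding a match, going down the list by mean difference. Gins1, Exo1 and Mcm3 had larger mean differences than Mcm5 and were passed over, as no match was found for them. The 150 bases before the start of transcription are given from RefSeq's GRCm38.p6 tables, 5′ to 3′ on the gene's strand, with matches to TTTNNCGC on either strand in capitals. Cdc6 lies at chr11:98908001-98908150 on the plus strand and Mcm5 at chr8:75109359-75109508 on the plus strand.
Cdc6: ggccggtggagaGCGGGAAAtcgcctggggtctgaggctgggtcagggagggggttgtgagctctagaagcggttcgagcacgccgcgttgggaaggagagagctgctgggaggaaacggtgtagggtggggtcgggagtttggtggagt
Mcm5: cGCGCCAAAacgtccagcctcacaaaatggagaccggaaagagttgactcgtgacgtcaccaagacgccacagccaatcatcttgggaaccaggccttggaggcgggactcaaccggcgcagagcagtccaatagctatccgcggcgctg
A match is a description of these letters and not evidence of a factor bound there.

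Nucleotide supply and the repair proteins of S phase moved with replication. Of 20 nucleotide synthesis genes, 13 were lower alike, with medians of -1.21 in C57epi.1 and -1.69 in Bm12.4. Rrm2, the regulated subunit of ribonucleotide reductase, had 9.01 and 9.11 in C57epi.1 replicates 3 and 4 against 11.14 and 11.07 in replicates 1 and 2, and 7.31 and 7.41 against 11.16 and 11.21 in Bm12.4. The levels of replicates 1 and 2 were nearly the same in the 2 lines, while replicates 3 and 4 were 4.13-fold lower in C57epi.1 and 14.2-fold lower in Bm12.4. Cad, which starts pyrimidine synthesis, differed by -1.93 and -2.41, Tyms, the thymidylate synthase, by -1.72 and -2.52, and Gart, of purine synthesis, by -1.85 and -2.09. Of 20 repair genes, 16 were lower alike, with medians of -1.45 and -2.36. Fancb, of the Fanconi core complex, had 5.04 and 5.45 against 7.64 and 7.90 in C57epi.1 and 4.05 and 4.43 against 8.10 and 8.0 in Bm12.4, the largest mean difference of any gene lower alike. The checkpoint kinase Chek1 differed by -2.26 and -3.23, the recombination motor Rad54l by -1.81 and -3.23, and Brca1 by -1.52 and -3.33.

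The lines' medians lay further apart for mitotic genes than for replication genes. Of 45 spindle, kinesin and centromere genes, 45 moved in Bm12.4 and 19 in C57epi.1, all of them lower, with medians of -0.90 in C57epi.1 and -2.37 in Bm12.4. Of 21 mitotic kinases and checkpoint genes, 19 moved in Bm12.4 and 12 in C57epi.1, with medians of -1.03 and -2.45. All 66 genes of these lists had differences below 0 in both lines. Bub1, a spindle checkpoint kinase, had 8.82 and 8.80 in C57epi.1 replicates 3 and 4 against 9.99 and 9.70 in replicates 1 and 2, and 6.27 and 6.56 against 9.59 and 9.49 in Bm12.4. The proliferation marker Mki67 had 9.55 and 9.48 against 10.14 and 10.12 in C57epi.1, where it did not reach 2-fold, and 7.33 and 7.80 against 9.70 and 9.51 in Bm12.4. The sets did not overlap in either line, but the gap in C57epi.1 was the smaller. Cdk1, the kinase that drives mitosis, differed by -0.92 in C57epi.1 and -2.29 in Bm12.4, and Top2a, which untangles replicated DNA, by -0.89 and -2.38. Pbk, a mitotic kinase, had the largest mean difference of its list, -2.17 and -3.39, and Cenpi, a centromere protein, of the other, -1.57 and -3.13.

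The promoter of Cdca5, which encodes the cohesin protector sororin and differed by -1.495 in C57epi.1 and -3.015 in Bm12.4, is shown because mitotic promoters often hold the cell cycle homology region, TTTGAA, near the start. Cdca5 was picked for holding a match, going down the mitotic lists by mean difference. Pbk and Cenpi had larger mean differences and were passed over, as no match was found for them. The Cdca5 stretch lies at chr19:6084947-6085096 on the plus strand of GRCm38.p6, and capitals mark its matches, of which there are 2.
Cdca5: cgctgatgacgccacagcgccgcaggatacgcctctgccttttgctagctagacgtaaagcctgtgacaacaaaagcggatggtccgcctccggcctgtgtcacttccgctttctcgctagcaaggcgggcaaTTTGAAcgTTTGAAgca
The last of them starts 9 bases before the start of transcription.

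**Figure D3:**
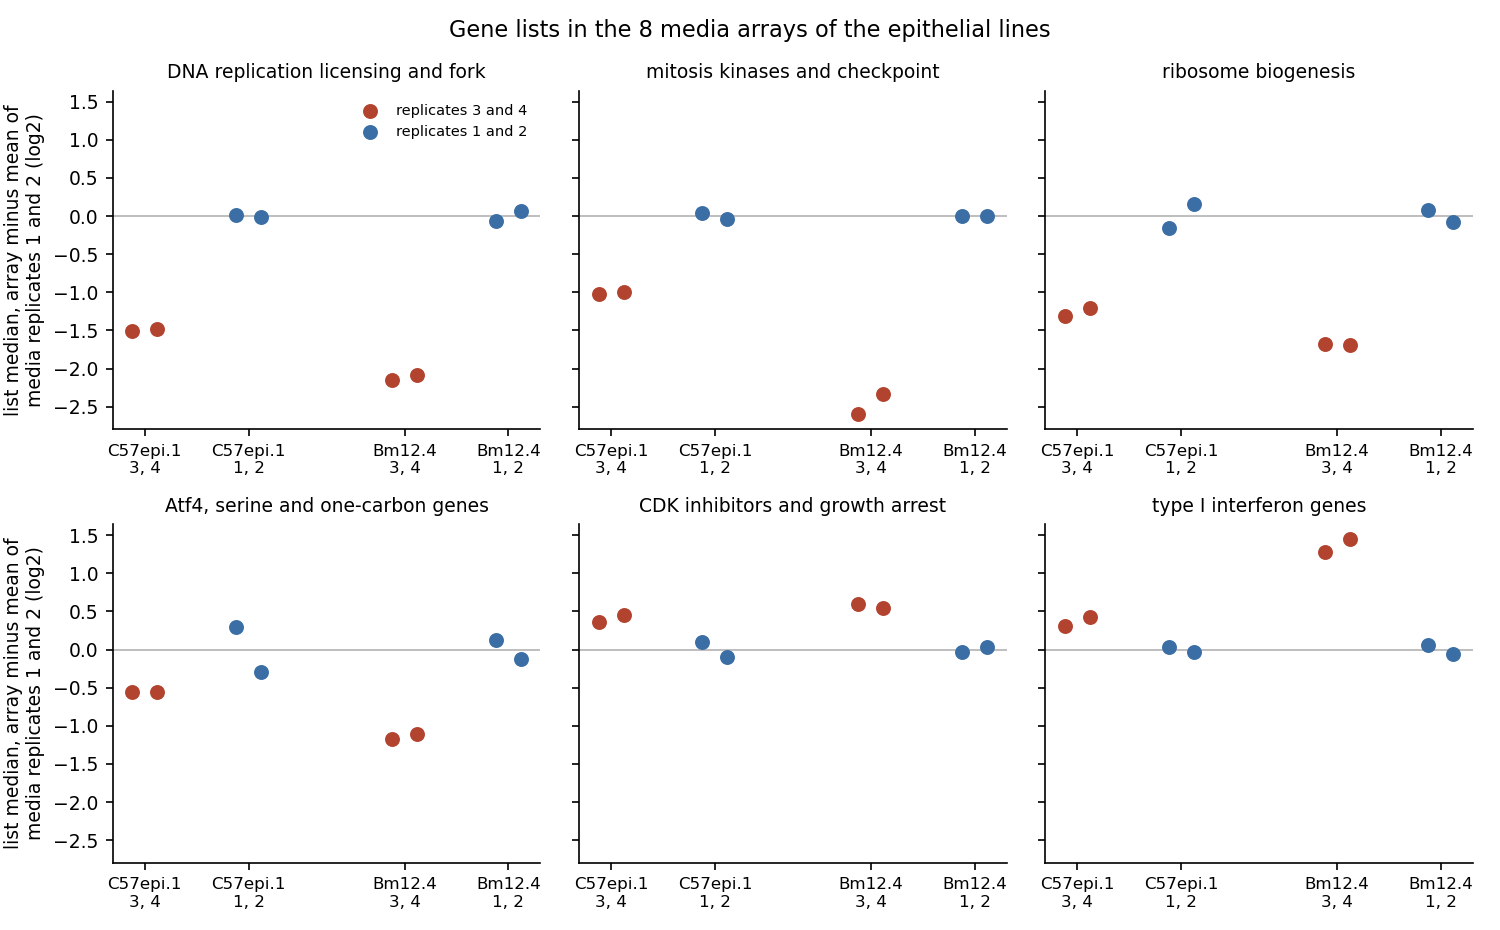
Median over the genes of 6 lists of each untreated array's log2 level minus the mean of replicates 1 and 2 of its line, 1 point per array. The replication, mitosis, ribosome biogenesis and Atf4 lists lie below 0 in replicates 3 and 4 of both lines, further below in Bm12.4.

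The G1 control genes did not move as a block. Of 28, 11 were lower alike, with medians of -0.95 and -1.17. Ccne2, the E-type cyclin that starts S phase with Cdk2, had 5.71 and 5.34 in C57epi.1 replicates 3 and 4 against 7.65 and 7.72 in replicates 1 and 2, and 4.06 and 4.56 against 8.19 and 8.07 in Bm12.4. Ccnd1, the D-type cyclin that answers growth factors, had 9.23 and 9.29 against 10.60 and 10.54, and 8.98 and 9.30 against 11.05 and 11.03. The repressor E2f8 differed by -1.75 and -2.97, and Mybl2, a subunit of the complex that turns on mitotic genes, by -2.36 and -2.28. E2f1, an activating E2F, did not move in either line, at -0.12 and -0.29. Myc, a growth regulator, differed by -0.25 in C57epi.1 and by -1.28 in Bm12.4, where it moved. Over all 6 cell cycle lists together, 109 of 179 genes were lower alike, 110 were lower in C57epi.1 and 160 in Bm12.4, and none was higher in either.

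Most ribosome biogenesis genes were lower as well. Of 32 ribosome biogenesis genes, 25 were lower alike, with medians of -1.28 and -1.69, and 28 were lower in Bm12.4. Nop56, a core protein of the particles that methylate ribosomal RNA, had 9.31 and 9.48 in C57epi.1 replicates 3 and 4 against 11.12 and 11.27 in replicates 1 and 2, and 9.03 and 9.11 against 11.59 and 11.34 in Bm12.4. Rrp12 and Heatr1, which act on ribosome precursors, differed by -2.09 and -2.38 and by -1.92 and -2.46, and the helicase Ddx21 by -2.08 and -2.20. The lines' medians lay closer together here than for the mitotic lists. Hsph1 and Hspd1, chaperones of the cytosol and mitochondria, differed by -2.25 and -2.09 and by -1.44 and -1.39, but 24 of 29 endoplasmic reticulum stress and chaperone genes moved in neither line. Of 36 mitochondrial respiration genes, only Cycs, the electron carrier cytochrome c, was lower alike, at -2.24 and -2.51.

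Atf4 is the transcription factor of the amino acid response, and its list holds serine synthesis, one-carbon and tRNA charging enzymes. Of its 36 genes, 9 were lower alike and 19 were lower in Bm12.4, with medians of -0.55 and -1.10. Atf4 itself had 8.75 and 8.86 in C57epi.1 replicates 3 and 4 against 10.16 and 9.52 in replicates 1 and 2, and 8.37 and 8.53 against 10.28 and 9.98 in Bm12.4. Mthfd2, of mitochondrial one-carbon metabolism, had 7.06 and 7.22 against 10.09 and 9.55, and 5.82 and 6.14 against 9.82 and 9.40. These were among the widest gaps of any gene. Shmt2, of the same pathway, differed by -1.79 and -2.33, Phgdh, which starts serine synthesis, by -1.33 and -1.63, and Asns, the asparagine synthetase, by -0.88 and -1.69. The transporters Slc7a5 and Slc7a1 were the 2 of 22 amino acid carriers lower alike, at -1.79 and -2.78 and at -1.42 and -2.08. Of the other carriers 13 moved in neither line, while Slc1a3 and Slc7a2 were higher in C57epi.1 (1.75 and 1.40) and Slc7a7 in Bm12.4 (1.09). With the 2 lower alike included, 3 carriers were lower in C57epi.1 and 5 in Bm12.4, and the list medians were -0.03 and -0.03. The promoter of Tars, a threonyl-tRNA synthetase that differed by -1.12 and -1.71, is shown because it holds the amino acid response element TGATGNAA. Tars was picked for its match, going down the list by mean difference. Mthfd2 had a larger mean difference and was passed over, as no match was found for it. The Tars stretch lies at chr15:11399659-11399808 on the minus strand of GRCm38.p6, and the capitals mark the match, on the reverse strand of the gene.
Tars: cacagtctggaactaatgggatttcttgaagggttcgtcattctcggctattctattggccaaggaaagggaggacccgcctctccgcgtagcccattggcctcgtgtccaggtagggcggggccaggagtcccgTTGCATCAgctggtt

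Motif matches were counted in windows of 250 bases before to 50 bases after the start, on both strands and with overlaps between motifs left in, for the gene sets of which at least 80% of genes had a window. All measured genes, given beside them, had a window for 78.3%, so their shares too leave out part of the genes. E2F matches (TTTNNCGC) stood in 19.1% of windows of the genes lower alike, against 6.51% of windows of all measured genes. They stood in 16.7% of windows of the 2 mitotic lists and 5.88% of those of the Atf4 list. The cell cycle homology region (TTTGAA) stood in 70.0% of windows of the 2 mitotic lists, against 14.8%, and in 21.3% of windows of the genes lower alike. The CCAAT box (CCAAT) stood in 70.0% of windows of the mitotic lists, 55.9% of those of the Atf4 list and 48.6% of those of the genes lower alike, against 37.4%. The amino acid response element stood in 32.4% of windows of the Atf4 list and 2.15% of those of the genes lower alike, against 3.08%. For 5 of the 8 sets, the replication list, the interferon list and the genes higher alike or in 1 line among them, fewer genes had a window and the shares are void.

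**Figure D4:**
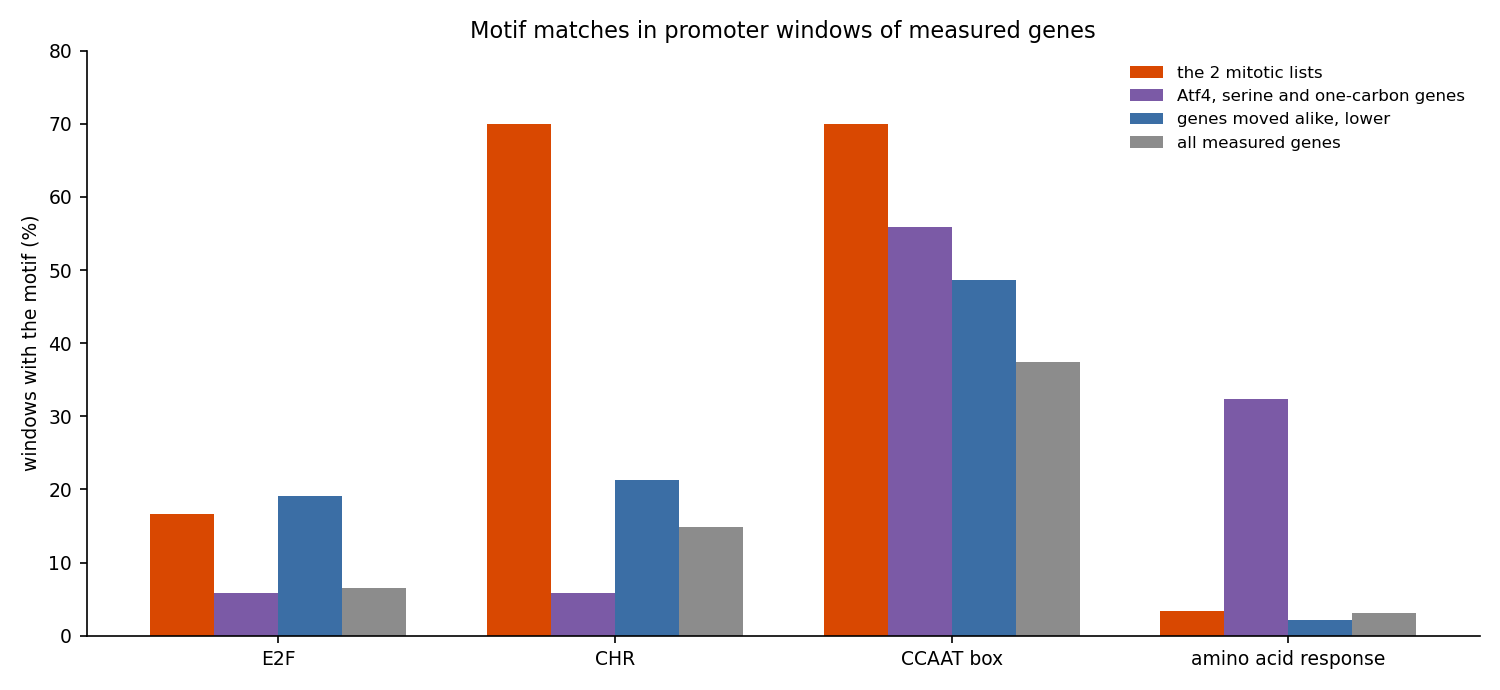
Share of promoter windows (y axis, percent) with each motif (x axis) for the 2 mitotic lists, the Atf4 list, the genes lower alike and all measured genes. The cell cycle homology region and CCAAT box bars of the mitotic lists reach 70.0%, and the amino acid response bar of the Atf4 list 32.4%.

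A few genes of the growth arrest list were among those higher alike. Of 39 genes of that list, 4 were higher alike, against 0.933% of all genes, with list medians of 0.42 in C57epi.1 and 0.59 in Bm12.4. In C57epi.1 7 of them were higher and 0 lower, and in Bm12.4 9 were higher and 2 lower. Selenop, a secreted selenium carrier, had 7.73 and 7.95 in C57epi.1 replicates 3 and 4 against 4.92 and 4.24 in replicates 1 and 2, and 9.49 and 9.22 against 6.08 and 6.35 in Bm12.4. It had the largest mean difference of any gene higher alike, 9.58-fold and 8.82-fold. Txnip, which limits glucose uptake, had 11.86 and 11.65 against 9.44 and 7.18, and 12.18 and 12.07 against 9.84 and 9.86. The sets did not overlap, but C57epi.1 replicates 1 and 2 lay far from each other, as they did for the hypoxia gene Car9 (8.24 in replicate 1 and 4.48 in replicate 2). Mxd4, an antagonist of Myc, differed by 1.71 and 1.67, and the repressor Hbp1 by 1.02 and 1.48. The inhibitor Cdkn1b differed by 0.81 and 0.60, Cdkn1c by -0.02 and 0.15, Cdkn2c by -0.66 and 0.33 and Cdkn2b by -0.06 and 0.64, and none of these moved. Cdkn2a moved in C57epi.1 (1.19 higher, against 0.42 in Bm12.4) and Cdkn2d in Bm12.4 (-0.38 in C57epi.1 and -1.05 in Bm12.4). Of 25 p53 targets, Trp53inp1 was higher alike (1.60 and 1.40) and Gtse1, itself a mitotic gene, lower alike (-1.52 and -1.96).

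Secreted defence proteins made up a further group. Of 27 complement and acute phase genes, 6 were higher alike and none lower, 10 were higher in each line, and 3 were lower in Bm12.4. Lbp, which binds bacterial lipopolysaccharide, had 10.49 and 10.67 in C57epi.1 replicates 3 and 4 against 6.90 and 5.51 in replicates 1 and 2, and 12.90 and 12.86 against 11.21 and 11.24 in Bm12.4. The sets stood clear of each other in both lines, by more in C57epi.1, where replicates 1 and 2 were lower. C4b, a complement component, differed by 2.66 and 2.67, the complement protease C1s1 by 2.57 and 2.12, and the iron-siderophore binder Lcn2 by 3.06 and 1.41. Ptx3, a secreted pattern recognition protein, went the other way in Bm12.4 (0.60 in C57epi.1 and -2.07 in Bm12.4). Cxcl5, a neutrophil chemokine, was the 1 of 28 chemokines higher alike (2.12 and 1.11). Cxcl15 had 9.62 and 9.95 against 5.66 and 5.09 in C57epi.1 and stayed between 2.91 and 3.56 in Bm12.4. Il6 was at the bottom of the scale in all 8 arrays, from 2.5 to 2.90.

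Among matrix genes, no gene of 40 collagens and fibrillar matrix proteins moved alike, against 3.38% of all genes, and Col1a1 differed by 0.14 and 0.07. Of 38 small proteoglycan and matrix remodelling genes, 5 were higher alike and 1 was lower. Lum, the keratan sulphate proteoglycan lumican, had 5.26 and 5.78 in C57epi.1 replicates 3 and 4 against 3.41 and 3.26 in replicates 1 and 2, and 6.03 and 6.30 against 3.82 and 3.89 in Bm12.4. Prelp and Fmod, proteins of the same family, differed by 2.98 and 1.03 and by 2.90 and 1.07. Pcolce2, an enhancer of procollagen processing, was the member lower alike (-1.99 and -3.05). Of 32 lysosome and autophagy genes, Ctso, Ctsa and Map1lc3b were higher alike, and the list medians were 0.55 and 0.71. Tcn2, a carrier of vitamin B12, was among the largest differences, at 2.68 and 3.53, and so was Aldoc, an aldolase of glycolysis, at 3.43 and 2.18. Aldoc was the 1 of 32 glycolysis and hypoxia genes to move alike.

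More interferon genes moved in Bm12.4 than in C57epi.1. Of 49 type I interferon genes, 33 were higher in Bm12.4 and 7 in C57epi.1, 5 of them alike, and the list medians were 1.33 in Bm12.4 and 0.33 in C57epi.1. The median level of the list in replicates 1 and 2 was 4.85 and 4.92 in C57epi.1, against 6.2 and 5.96 in Bm12.4. At the lower levels of C57epi.1 a change could be hidden. Irf7, the factor that amplifies the interferon response, had 6.93 and 7.02 in C57epi.1 replicates 3 and 4 against 5.44 and 4.76 in replicates 1 and 2, and 9.95 and 10.30 against 6.69 and 6.22 in Bm12.4. It was higher by 3.67-fold and 12.7-fold. Ifit3, a restriction factor of viral RNA, had 4.94 and 5.02 against 4.01 and 3.93, near the bottom of the scale, and 8.74 and 9.33 against 5.61 and 4.02. Rtp4 differed by 1.46 and 3.42, and Ifi27 by 1.52 and 1.91. Irf9 and Stat3, of the signalling list, were also higher alike, at 1.42 and 2.17 and at 1.07 and 1.35. For 14 genes of the list the difference was put in Bm12.4 alone, among them Oas2, a sensor of viral RNA, with 4.35 and 4.44 against 4.29 and 4.49 in C57epi.1 and 7.79 and 7.95 against 5.56 and 4.61 in Bm12.4. Of 16 interferon-inducible GTPases, 6 were higher in Bm12.4, where Gbp7 differed by 2.79, and none in C57epi.1. Of 21 MHC class I and peptide loading genes, 1, Tapbp, moved in Bm12.4 and none in C57epi.1. The promoter of Ifit3, at chr19:34583379-34583528 on the plus strand of GRCm38.p6, is shown with its match to the interferon-stimulated response element, on the reverse strand, in capitals. The element stood in 3.27% of windows of all measured genes.
Ifit3: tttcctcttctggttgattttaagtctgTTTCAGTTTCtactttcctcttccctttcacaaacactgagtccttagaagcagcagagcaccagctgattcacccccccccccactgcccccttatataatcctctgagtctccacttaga

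A gene was put in 1 line if it moved there, differed by less than 0.5 in the other and passed the yardstick for the difference between the lines. By this rule 74 genes were higher in C57epi.1 alone (0.371% of all genes) and 17 lower (0.0853%), and 185 were higher in Bm12.4 alone (0.928%) and 73 lower (0.366%). A further 919 genes (4.61%) moved in 1 line without meeting the rule, and 1 gene (0.00502%), Serpinb9b, moved in opposite directions (1.40 in C57epi.1 and -1.02 in Bm12.4). Ahsg, the serum glycoprotein fetuin, had 7.81 and 8.29 in C57epi.1 replicates 3 and 4 against 4.82 and 4.40 in replicates 1 and 2, and stayed between 3.43 and 3.96 in Bm12.4. Several genes of this kind were near the bottom of the scale in the other line, where a change could be hidden. Lgals2, a galectin, was not: it had 9.27 and 9.19 against 7.07 and 5.85 in C57epi.1, and 10.59 and 10.68 against 10.65 and 10.59 in Bm12.4. Kitl, the ligand of the Kit receptor, differed by 1.86 and 0.48, and the matrix glycoprotein Tnc by 1.49 and -0.25. Lower in C57epi.1 alone were Mpzl2, an epithelial adhesion protein (-1.76 against 0.20), and the phosphatase Dusp14 (-1.44 against 0.22).

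In Bm12.4 alone the largest difference was that of Scrg1, a gene named for its response to scrapie. It had 10.31 and 9.84 in Bm12.4 replicates 3 and 4 against 6.72 and 5.77 in replicates 1 and 2, and lay between 3.29 and 3.43 in C57epi.1. The water channel Aqp1 had 9.97 and 9.69 against 6.65 and 5.60, and between 4.78 and 5.26 in C57epi.1. Thbs1, a matrix protein that inhibits vessel growth, had 11.74 and 10.61 against 8.29 and 8.11 in Bm12.4, and was high in all C57epi.1 arrays, at 12.54 and 12.54 against 11.94 and 12.49. Esr1, the estrogen receptor of the reproductive tract, had 7.69 and 7.53 against 5.76 and 5.75 in Bm12.4 and lay between 4.71 and 5.02 in C57epi.1. The matrix genes Nid2, Fbln5 and Fbln1 differed by 2.02, 1.75 and 1.43 in Bm12.4. Of the 40 collagen and fibrillar matrix genes 5 were higher in Bm12.4 and 2 were lower, Col12a1 (-1.16) and Vcan (-1.12). Lower in Bm12.4 alone was Cth, which makes cysteine by transsulphuration, with 5.84 and 5.79 against 9.46 and 8.39, and between 3.81 and 4.09 in C57epi.1. Mthfd1l, a mitochondrial one-carbon enzyme that C57epi.1 did express, had 6.63 and 6.81 against 9.31 and 9.18 in Bm12.4, and 9.10 and 9.28 against 9.75 and 9.15 in C57epi.1. Krt14, a basal keratin, had 6.90 and 7.26 against 8.80 and 8.82 in Bm12.4, and 10.95 and 11.13 against 11.33 and 11.07 in C57epi.1.

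Some lists had no gene that moved alike, which for lists of this size is near the share of all genes (3.38%). None of 38 YAP and serum response targets moved alike, and Ccn2 had 8.96 and 8.84 in C57epi.1 replicates 3 and 4 against 8.18 and 9.95 in replicates 1 and 2, which overlapped. None of 24 cholesterol synthesis and uptake genes moved alike, but 19 had differences below 0 in C57epi.1 and 17 in Bm12.4, with list medians of -0.28 and -0.28. In Bm12.4, 2 of them were higher, among them the lipid exporter Abca1 (1.65), and 4 were lower, among them the synthesis enzymes Idi1 (-1.98) and Sqle (-1.48). Hmgcs1 differed by -0.20 in C57epi.1 and 0.02 in Bm12.4. Fewer cells of a kind and less RNA per cell cannot be told apart in these bulk samples.

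The same numbered sets exist among the supernatant arrays, which had no part in choosing the split. These arrays did not group cleanly by set. In C57epi.1 supernatant the correlation across genes was 0.9941 within replicates 1 and 2 and 0.9975 within replicates 3 and 4. Between the sets it was 0.9925 to 0.9974. In Bm12.4 supernatant the values were 0.9942 and 0.9963 within the sets and 0.9866 to 0.9964 between them. With both lines together, 583 genes passed limma's moderated test with Benjamini-Hochberg adjustment over 19938 genes (2.92% of all genes), 103 higher (0.517%) and 480 lower (2.41%) in replicates 3 and 4. Of the 488 genes lower alike in medium, 238 fell and none rose, and 487 had differences below 0, against 47.7% of all genes. Of the 186 genes higher alike, 25 rose and none fell, and 181 had differences above 0, against 51.6% of all genes. The calls among these genes are not independent of how the genes were chosen. The yardstick in medium and limma's test here and below used the same spread, taken over all arrays, supernatant included. Genes of small spread were favoured in both, so their share of calls cannot be set against that of all genes. The signs of the differences do not use this spread. The sizes were smaller than in medium, with medians of -0.46 and 0.40. These counts rest on single arrays. No gene passed without C57epi.1 replicate 1 or 4 or without Bm12.4 replicate 1 or 3, in a fit of the compared arrays alone, or in an additive fit of the 8 arrays, where 1989 to 3393 genes had an unadjusted p under 0.05. Without C57epi.1 replicate 3 there were 104 calls, without C57epi.1 replicate 2 there were 1195, and without Bm12.4 replicate 2 there were 1773. The split was 130 higher and 257 lower after quantile normalization, and 66 and 740 after centring on array medians.

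In supernatant the lists were called to different extents. Of 45 replication genes, 32 fell, of 32 ribosome biogenesis genes 22, of 20 nucleotide genes 13, of 20 repair genes 11 and of 28 G1 genes 12. Of 66 mitotic genes 5 fell, and of 49 type I interferon genes none was called. Over all genes 2.41% were called lower and 2.92% either way. At that share few calls are due among 49 genes, so none called does not show the interferon list unchanged. Leaving out 1 array moved each of these counts of lower genes to 0 (any of the 4 arrays named above) and at most to 40 replication, 27 ribosome, 16 nucleotide, 16 repair and 16 G1 genes (without Bm12.4 replicate 2). In that fit 6 mitotic kinase and checkpoint genes and 12 spindle genes fell, against 1 and 4 with all arrays; centring on array medians gave 6 and 8. Ccne1, the other E-type cyclin, had 7.86 and 7.34 in C57epi.1 replicates 3 and 4 against 8.88 and 8.21 in replicates 1 and 2, and 6.33 and 6.45 against 8.35 and 7.45 in Bm12.4. It fell by 1.23 on the log2 scale (SE 0.169, limma adjusted p = 0.0124). In both lines replicate 1 was the highest array, and replicate 2 lay between it and replicates 3 and 4. Tyms fell by 0.75 (adjusted p = 0.0131), Mcm3 by 0.82 (adjusted p = 0.0203) and Pcna by 0.47 (adjusted p = 0.0315). Mki67 had 9.36 and 9.46 against 9.67 and 9.48 in C57epi.1 and 8.48 and 8.67 against 9.70 and 8.93 in Bm12.4, and was not called (-0.45, limma adjusted p = 0.321). Cdkn1b rose by 0.52 (limma adjusted p = 0.0434). Ypel3, a small protein linked to growth arrest, rose by 0.97 (adjusted p = 0.0233) and Lcn2 by 1.08 (adjusted p = 0.0255). Irf7 lay between 11.30 and 12.51 in all 8 supernatant arrays and differed by 0.22 (limma adjusted p = 0.658).

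**Figure D5:**
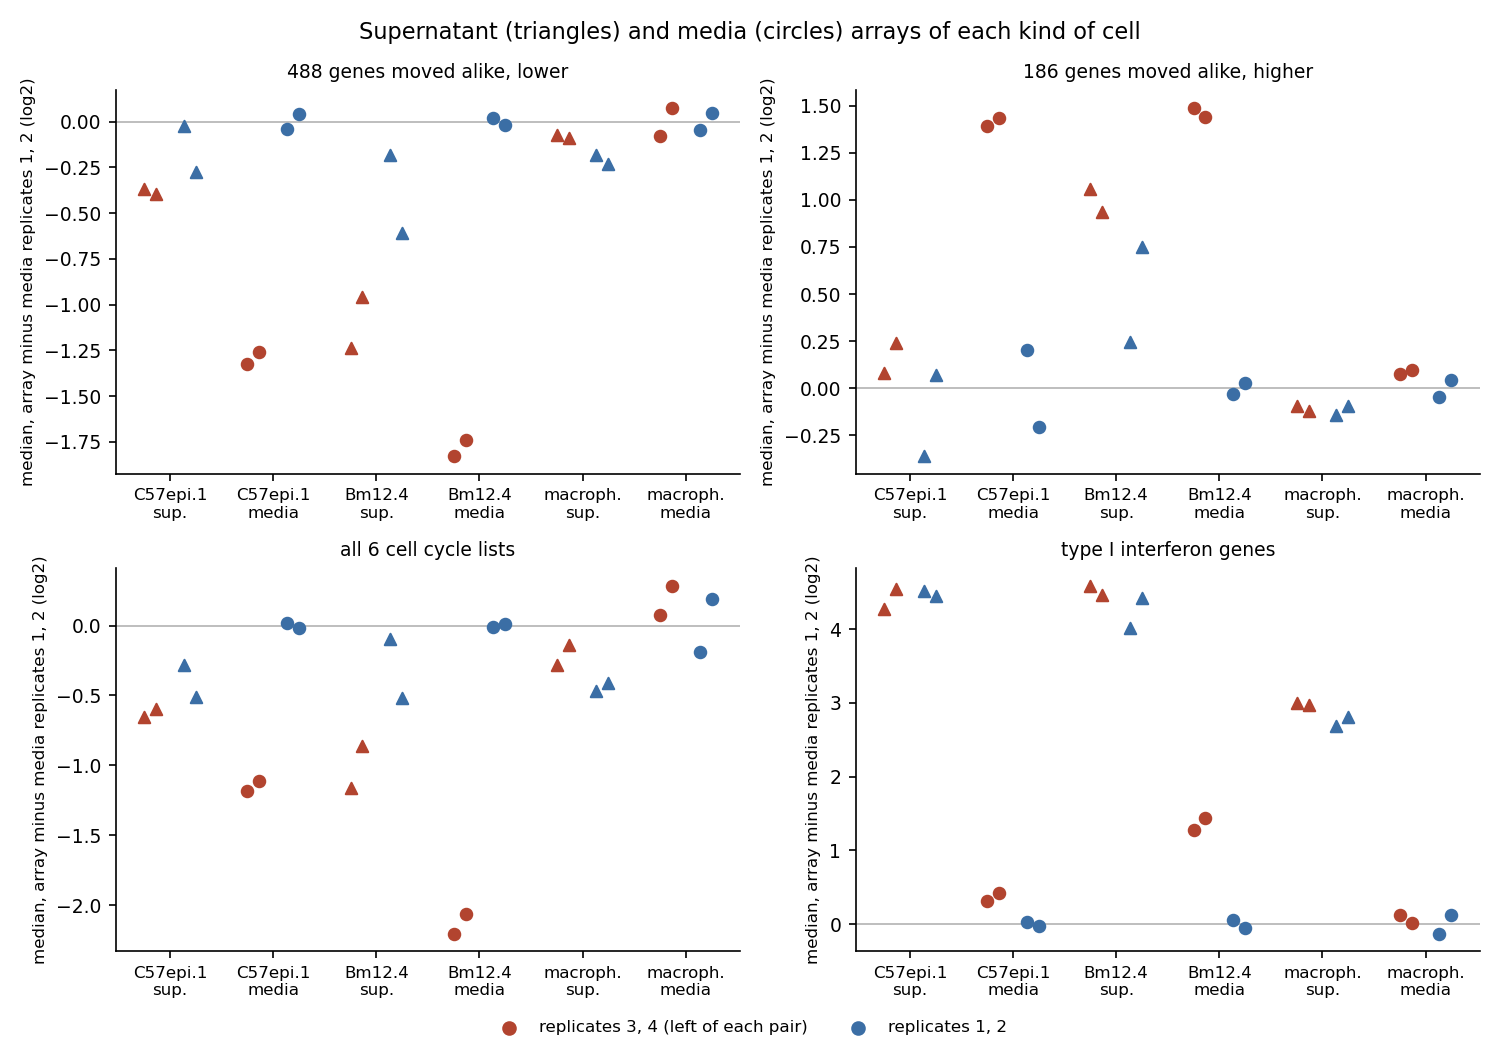
Median log2 position of gene groups in every array, by cell kind, treatment and replicate, relative to untreated replicates 1 and 2 of the same cells. In supernatant the cell cycle genes of replicate 1 of each line sit highest among its supernatant arrays, at -0.28 in C57epi.1 and -0.10 in Bm12.4, and those of replicates 3 and 4 sit lowest.

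The lines gave unequal parts of this result. In Bm12.4 supernatant arrays 872 genes passed limma's test (4.37% of all genes), 154 higher (0.772%) and 718 lower (3.6%), among them 295 of the 488 genes lower alike and 24 of the 186 higher alike. That count was 0 without Bm12.4 replicate 1 or 3 and in a fit of the compared arrays alone (1485 to 3138 genes at an unadjusted p under 0.05), 2038 without replicate 2, and 647 without replicate 4. In C57epi.1 none of 19938 genes passed (0%), with 1303 at an unadjusted p under 0.05, 314 adjusted calls without replicate 2, and 463 of the 488 genes lower alike below 0, against 50.2% of all genes. The difference between the lines' splits passed for 2 genes (0.01% of all genes), 1 higher (Fxyd5) and 1 lower (Tmtc4, 0.00502% each), so the calls in 1 line and not in the other are not shown to differ. Over the 6 cell cycle lists the median position was -0.66 and -0.60 in C57epi.1 replicates 3 and 4 against -0.28 and -0.51 in replicates 1 and 2, and -1.17 and -0.86 against -0.10 and -0.52 in Bm12.4. Of the 185 genes higher in Bm12.4 alone in medium, 23 rose in Bm12.4 supernatant arrays, and of the 73 lower there, 26 fell. Like the calls among genes moved alike, these fell on genes chosen with the spread that this test used. Their shares are therefore not independent of the choice. Of the 74 genes higher in C57epi.1 alone none could be counted as called in C57epi.1 supernatant arrays, where no gene passed. Among them 52 had differences above 0 there and 20 below, with a median of 0.195. Mthfd2 in Bm12.4 had 6.91 and 7.32 against 9.21 and 8.49 (fell by 1.74, limma adjusted p = 0.00211), and in C57epi.1 10.26 and 10.07 against 10.19 and 10.30.

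The split of macrophages with the same replicate numbers had little in common with that of the lines. With medium, 8 genes passed limma's test (0.0401% of all genes), 2 higher (0.01%) and 6 lower (0.0301%). None was among the 674 that moved alike in the lines (3.38% of all genes), but 8 calls are too few to read that from. In medium the 488 genes lower alike had 228 differences above 0 and 254 below (median -0.01). The 186 higher alike had 130 above and 53 below (median 0.088, against -0.01 over all genes), a small lean in the direction of the lines. There were 0 calls without replicate 1 (858 genes at an unadjusted p under 0.05), 5 without replicate 3 and 53 without replicate 2. The correlation of that split with the split of the untreated lines across genes was 0.012. Apoe, the lipid carrier, was the highest call (1.24, limma adjusted p = 0.0234). With supernatant, 336 genes passed (1.69%), 196 higher (0.983%) and 140 lower (0.702%), with 207, 111 and 148 calls without replicates 1, 2 and 3. Of the 488 genes lower alike in the lines, 4 were called higher there and 1 lower, with 367 differences above 0 and 118 below (median 0.138). Of the 186 higher alike none was called higher and 4 lower, with 115 above 0 and 71 below (median 0.068). The chemokines Ccl7 and Ccl12 rose by 2.07 and 2.02, and Cxcl3 and Ccl22 fell by 3.09 and 2.03. The median position of the mitotic spindle list ranged from -0.47 to 0.83 among the 4 untreated macrophage arrays, with replicate 1 the lowest.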

How the data were processed

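Transcripts of 3 cell kinds, with medium or supernatant, were measured on 24 arrays, 4 per group. The authors deposited log2 values per probe set, made with GCOS, Partek 6.2 and RMA per the submitters' processing notes. Of 28853 probe sets, 21789 had a single gene symbol, and the set with the highest mean stood for each of 19938 genes. Array medians lay between 5 and 5.19 and no arrays were identical. A log2 array has no read depth, and the number of arrays limits the precision. P-values measure the spread between these arrays, which may be technical.

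A model of 12 means (cell kind, treatment and replicate set) was fitted to all 24 arrays with limma 3.58.1 in R 4.3.3, with 12 residual degrees of freedom and Benjamini-Hochberg adjustment over all genes, and was tested on simulated data. The members and gene lists were chosen with earlier results of these data known. Named genes are the largest differences per class and list, plus a set of cell cycle, interferon and marker genes; others are named to illustrate their list, after their values were seen. Some list genes were not analysed here. The deviations of same-numbered arrays of the lines correlated at 0.187 for supernatant replicates 1 and 2 and between -0.057 and -0.001 for the other sets. The numbers were not taken as pairs. The test of both lines in supernatant thus treats as independent some arrays that may not be wholly so. The block correlation (-0.014) was taken over all 24 arrays and does not describe supernatant replicates 1 and 2 alone. Alternatives were scaling, a level filter, probe set choice, moderation, fold, model and leaving out each array.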

Additional observations from a re-analysis of the deposited data

Results flagged for a closer look

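Differences between the lines in untreated cells are given as the C57epi.1 difference minus the Bm12.4 difference, with each line's own difference after it; they were not tested, because the split was chosen on these arrays. Among genes higher in C57epi.1 alone, Ahsg differed by 3.26 (3.44 and 0.19), Prr9 by 2.78 (2.81 and 0.04), Lgals2 by 2.76 (2.77 and 0.02), Plac1, a gene of the placenta, by 2.7 (2.97 and 0.27) and the phospholipase Plce1 by 2.62 (2.81 and 0.20). Among genes lower in C57epi.1 alone, Mpzl2 differed by -1.95 (-1.76 and 0.20), the carbonic anhydrase Car12 by -1.78 (-1.41 and 0.37), Dusp14 by -1.66 (-1.44 and 0.22), the kinase Stk39 by -1.2 (-1.34 and -0.14) and the repressor Zhx2 by -1.12 (-1.35 and -0.23).

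Among genes higher in Bm12.4 alone, Scrg1 differed by -3.84 (-0.01 and 3.83), Aqp1 by -3.63 (0.08 and 3.71), the receptor Adgrf1 by -3.14 (-0.05 and 3.09), the interferon gene Ifit3b by -2.8 (0.15 and 2.96) and Thbs1 by -2.65 (0.33 and 2.98). Among genes lower in Bm12.4 alone, Cth differed by 2.98 (-0.13 and -3.11), Mthfd1l by 2.26 (-0.26 and -2.53), Efcab11 by 1.85 (-0.15 and -1.995), Arhgef39 by 1.76 (-0.37 and -2.13) and the spindle protein Spdl1 by 1.72 (-0.38 and -2.10).

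In supernatant arrays, which the split was not chosen on, limma called the difference between the lines for Fxyd5, a regulator of the sodium pump (1.48, from 0.77 in C57epi.1 and -0.71 in Bm12.4), and for Tmtc4 (-1.25, from -0.45 and 0.80).

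In 1 of 92 pairs of gene list and array group, an array stood apart: the endothelial list of Bm12.4 supernatant replicate 4 lay at 0.11, against 0.005 to 0.02 in the other 3 arrays. Chance flags about 1 in 20 such groups. Among probe sets with no single gene symbol, which the report does not use, 79 moved alike in untreated cells, 20 higher and 59 lower.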

How the results depend on the processing

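In untreated cells the counts of moved genes lay within 1.5 times their values under every scaling, level filter, probe set, moderation and model tried, and no result reversed its direction. Leaving out 1 array gave 817 to 1258 genes in C57epi.1, 1635 to 1745 in Bm12.4, 604 to 740 alike and 264 to 379 (349 with all arrays) that moved in 1 line and differed between the lines. A 1.5-fold threshold gave 1941 alike (755 higher and 1186 lower), with all 674 among them. The supernatant results were not stable. With only the arrays compared, 0 genes passed in Bm12.4, 0 in both lines, 0 for the difference between the lines, 0 in macrophages with medium and 78 with supernatant, and the additive model of 8 arrays gave 0 in both lines. Quantile normalization gave 387 in both lines, and 273 higher and 494 lower in Bm12.4. Centring on array medians gave 251 higher and 114 lower in macrophages with supernatant. A mean level of at least 5 gave 5 calls in macrophages with medium, a trended and robust fit 2 in C57epi.1 supernatant, and the probe set of largest spread 0 for the difference between the lines, a contrast chosen after seeing the data. Leaving out 1 array gave 0 to 314 calls in C57epi.1 supernatant, 0 to 2038 in Bm12.4, 0 to 1773 in both lines, 0 to 272 for their difference, and in macrophages 0 to 53 with medium and 111 to 335 with supernatant; of the genes lower and higher alike, 0 to 369 and 0 to 100 were called. The cause was not tested. The replicate number as a random replicate block (correlation -0.014) gave 674 alike and 639 in both lines with supernatant, the results it was run on; of the list counts within the second, mitotic kinases called lower went to 2 from 1 and the others stayed within 1.5 times. With 2 arrays a set, small differences and genes near the bottom of the scale are out of reach.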

Other observations

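Some gene families outside the lists also differed between the replicate sets of untreated cells. They were chosen after their values were seen and are given without a test. Of 22 protocadherin beta genes, cell adhesion proteins of a clustered locus, 9 were higher in C57epi.1 and 6 in Bm12.4, with 4 alike and none lower. Pcdhb16 had log2 levels of 6.89 and 6.76 in C57epi.1 replicates 3 and 4 against 5.68 and 4.77 in replicates 1 and 2, and 6.75 and 6.71 against 5.08 and 4.54 in Bm12.4. Of 7 glutathione transferases of the mu class, which detoxify electrophiles, 3 were higher alike, with medians of 1.22 in C57epi.1 and 1.23 in Bm12.4. Gstm1 had 10.69 and 10.70 against 9.31 and 8.75, and 11.53 and 11.57 against 10.19 and 10.55. Members of these families resemble each other closely, so their probe sets may share signal. Of 5 Ypel genes, Ypel2 and Ypel3 were higher alike, and the family's medians were 0.95 and 1.32.

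Among families of basic machinery, 5 of 19 nucleoporin genes were lower alike and 11 were lower in Bm12.4. Of 7 augmin subunits, which nucleate spindle microtubules, 4 were lower alike, and of 24 Timm and Tomm genes of mitochondrial protein import, 6. The ribosomal proteins themselves did not follow ribosome biogenesis: of 55 measured, 1 was lower alike and the medians were 0.14 in C57epi.1 and 0.18 in Bm12.4. Of 77 mitochondrial ribosomal proteins, 1 was lower alike, with medians of -0.40 and -0.45.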
